A study of Mus musculus with 6 samples.

Results

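The genes described here encode carriers that bring amino acids, glucose and monocarboxylates across the plasma membrane of CD4 T cells. The set held 10 genes of the 23415 gene entries measured: the amino acid carriers Slc7a5, Slc3a2, Slc1a5, Slc7a1, Slc7a6, Slc38a1 and Slc38a2, the glucose carrier Slc2a1, and the monocarboxylate carriers Slc16a1 and Slc16a3. It was chosen by hand after the measured FPKM of Slc7a5 had stood lower in NLRP3KO than in WT at day 3. The difference between the genotypes at day 3 is therefore part of how the genes were chosen, and its values are given as a description that supports nothing.

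RNA was sequenced from CD4 T cells of spleen and nodes of mice on the C57/Bl6j strain, 7 weeks old, either wild-type (WT) or NLRP3-/- (NLRP3KO). NLRP3 senses danger signals and nucleates an inflammasome, which activates caspase-1. For each genotype there was 1 library of naive T cells and 1 each of cells cultured for 3 or 6 days toward the T helper type 2 (Th2) fate with 10 ng/ml IL-4 and an antibody against IFNgamma, in plates coated with CD3/CD28. The Th2 libraries were made from RNA depleted of ribosomal RNA and the naive ones from purified mRNA, so this step and the culture cannot be told apart in any comparison of the 2 stages. The labels do not say how many animals gave each library or how the NLRP3-/- allele was made. With 1 library per group there was no replicate check, each value is that of a single library, and no test was made between libraries.

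Activated T cells build proteins, nucleotides and membranes at a high rate and raise their uptake of amino acids and glucose to do so. The products of Slc7a5 and Slc3a2 form a heterodimer, known as LAT1 and CD98, that exchanges large neutral amino acids such as leucine across the membrane, and leucine in turn feeds the kinase complex mTORC1. Cells that run glycolysis at a high rate export the resulting lactate together with a proton through monocarboxylate carriers. Transcription factors known to act on such carrier genes include Myc, the amino acid response factor ATF4 and the hypoxia factor HIF1.

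Promoter sequences are shown for the genes with RefSeq windows that were at least 2-fold lower in NLRP3KO at day 3, Slc3a2, Slc7a1 and Slc38a2, beside Slc2a1, Slc16a1 and Slc16a3, which were not. Of the first 3, Slc7a1 alone had deposited bounds apart between the genotypes. Each is the 250 bases before the annotated start in RefSeq (GRCm38.p6), written 5′ to 3′ on the gene's strand. Capitals mark ACGTG on either strand, the core of the hypoxia response element, which also lies inside the E-box CACGTG that Myc binds. The windows are chr19:8713898-8714147 (minus strand) for Slc3a2, chr5:148392816-148393065 and chr5:148399905-148400154 (minus) for Slc7a1, chr15:96699729-96699978 (minus) for Slc38a2, chr4:119108495-119108744 (plus) for Slc2a1, chr3:104638414-104638663 (plus) for Slc16a1 and chr11:120948817-120949066 (plus) for Slc16a3.
Slc3a2: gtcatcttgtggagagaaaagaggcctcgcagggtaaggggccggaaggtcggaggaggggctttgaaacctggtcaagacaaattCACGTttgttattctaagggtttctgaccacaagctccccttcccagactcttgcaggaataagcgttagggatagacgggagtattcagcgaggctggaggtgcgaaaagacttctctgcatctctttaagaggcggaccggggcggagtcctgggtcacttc
Slc7a1, first window: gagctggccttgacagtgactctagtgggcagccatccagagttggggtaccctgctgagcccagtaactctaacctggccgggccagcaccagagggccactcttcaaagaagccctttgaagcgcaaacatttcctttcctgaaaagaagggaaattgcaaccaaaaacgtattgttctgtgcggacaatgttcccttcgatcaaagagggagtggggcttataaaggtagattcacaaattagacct
Slc7a1, second window: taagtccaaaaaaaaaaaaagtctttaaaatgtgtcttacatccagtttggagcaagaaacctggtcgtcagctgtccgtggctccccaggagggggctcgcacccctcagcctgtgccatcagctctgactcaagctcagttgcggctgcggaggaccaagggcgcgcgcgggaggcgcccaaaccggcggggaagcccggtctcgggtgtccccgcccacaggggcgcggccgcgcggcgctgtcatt
Slc38a2: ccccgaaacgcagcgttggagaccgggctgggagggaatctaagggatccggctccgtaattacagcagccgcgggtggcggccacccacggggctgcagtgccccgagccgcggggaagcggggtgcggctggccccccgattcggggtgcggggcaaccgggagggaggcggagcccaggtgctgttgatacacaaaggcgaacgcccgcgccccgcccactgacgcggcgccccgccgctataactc
Slc2a1: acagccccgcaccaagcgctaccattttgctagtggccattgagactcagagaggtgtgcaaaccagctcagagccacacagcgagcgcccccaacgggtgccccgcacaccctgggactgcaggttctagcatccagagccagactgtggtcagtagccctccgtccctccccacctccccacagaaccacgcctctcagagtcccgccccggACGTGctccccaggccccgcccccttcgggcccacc
Slc16a1: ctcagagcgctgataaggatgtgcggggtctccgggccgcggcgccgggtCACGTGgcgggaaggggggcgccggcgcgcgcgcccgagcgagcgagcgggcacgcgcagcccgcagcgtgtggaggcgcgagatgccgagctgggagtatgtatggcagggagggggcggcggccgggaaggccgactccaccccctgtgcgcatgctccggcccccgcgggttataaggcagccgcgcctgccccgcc
Slc16a3: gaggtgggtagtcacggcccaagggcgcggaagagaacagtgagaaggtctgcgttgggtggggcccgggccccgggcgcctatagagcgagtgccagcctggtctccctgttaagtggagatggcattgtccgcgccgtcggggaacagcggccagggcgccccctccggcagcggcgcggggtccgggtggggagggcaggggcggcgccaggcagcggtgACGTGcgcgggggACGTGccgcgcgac

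In the Slc2a1 window the match began 36 bases before the start, and Slc16a3 held a pair of matches, 27 and 14 bases before it. In Slc16a1 the match was a whole CACGTG, 200 bases before the start, and in Slc3a2 it lay 164 bases before the start on the reverse strand. The Slc38a2 window and both Slc7a1 windows held none. RefSeq windows were matched for 7 of the 10 genes, with 9 windows in all, since Slc7a1 and Slc7a6 have a pair of starts each. ACGTG stood in 6 of these 9 windows, against 16.6% of all 32851 windows of this length. It stood in at least 1 window of 5 genes, for which no share over all genes was taken. The pair of Slc7a6 windows overlaps, and the windows were not matched for base composition. CACGTG stood in 1 of the 9 (6.02% of all windows). The amino acid response element TGATGNAA, searched on both strands, stood in 0 of the 9 (3.45% of all windows). A match is a run of letters and not a bound site, and the lack of one in 250 bases says nothing of the rest of the gene.

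Values are FPKM (fragments relative to transcript length and library total) as deposited, each with the deposited lower and upper bound. Differences between libraries are log2 of FPKM plus 1 after scaling by the median ratio over 1059 genes, and a gene was kept where its FPKM reached 1 in at least 1 of the 2 libraries and called where it was at least 2-fold apart. The libraries differed widely in depth. An estimated 1361255 and 1120224 fragments lay on genes in naive WT and naive NLRP3KO, between 20052 and 25603 in WT day 3, NLRP3KO day 3 and WT day 6, and 4430 in NLRP3KO day 6. The 10 transporters together drew 1427 fragments (WT) and 1554 (NLRP3KO) before culture, 83 (WT) and 38 (NLRP3KO) after 3 days and 102 (WT) and 6 (NLRP3KO) after 6 days. At least 3 fragments fell on 10 of 10 genes in both naive libraries. In the WT cultures this held for 8 genes at day 3 and 9 at day 6, and in the NLRP3KO cultures for 6 and 1. Fragment numbers were read from the confidence bounds, and the intervals built on them cover counting error only and compare 2 libraries, not the genotypes or times. Markers of T cells summed to an FPKM of 1435 (WT) and 1907 (NLRP3KO) in naive cells and to 38.5 to 71.9 in the Th2 libraries. Of 29 entries for B cell, CD8 and NK cell, myeloid and erythroid markers, 28 were above 0 in naive WT (sum 1408) and 27 in naive NLRP3KO (sum 732), but at most 1 in each Th2 library. The deleted gene, Nlrp3, reached an FPKM of 0.0569 in naive WT alone and was at 0 elsewhere, WT Th2 cells included, so it does not check the genotype labels at this depth.

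**Figure D1:**
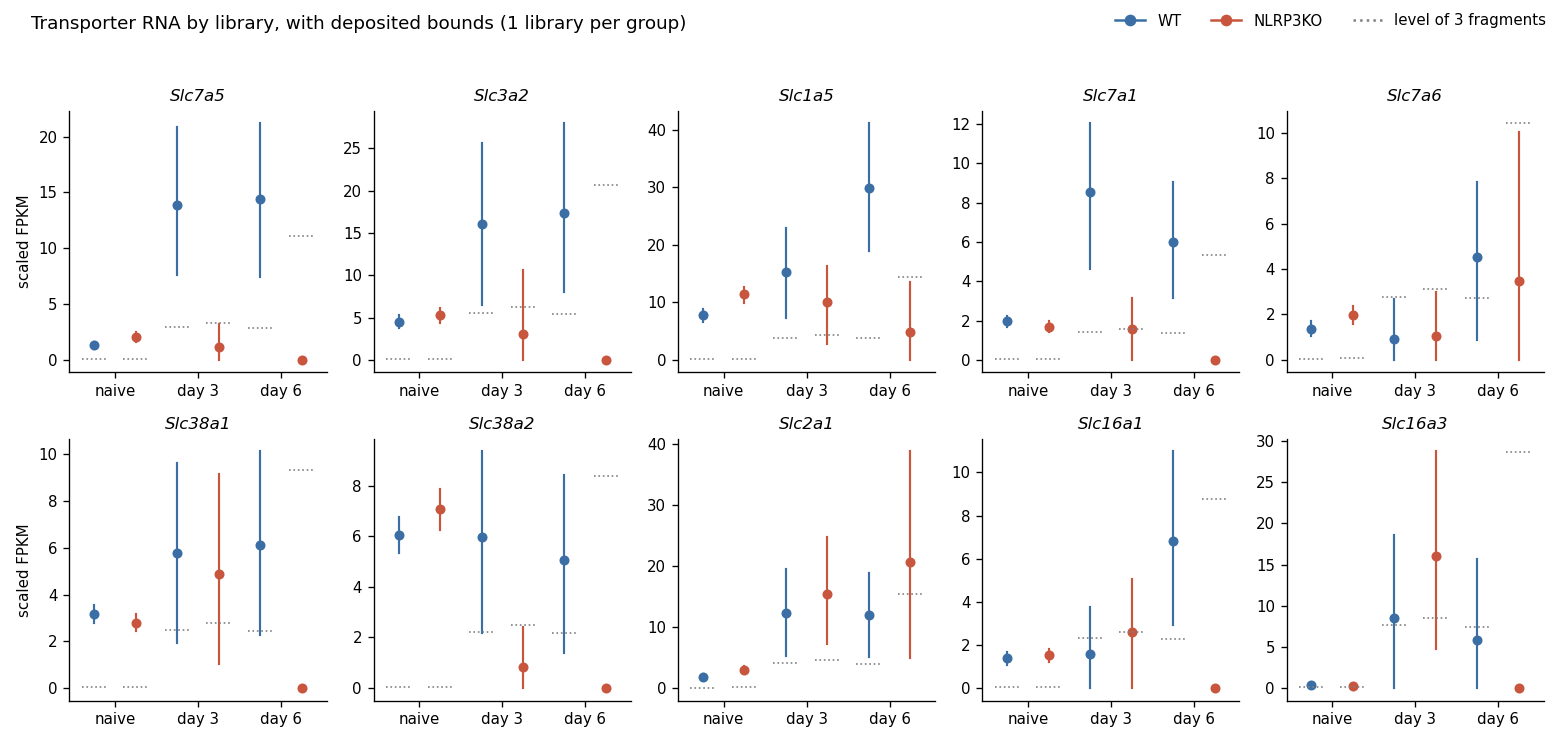
Scaled FPKM of each transporter (vertical axis, linear) in the 6 libraries (horizontal axis), 1 panel per gene, with WT in blue, NLRP3KO in red, bars for the deposited bounds times the scaling factor and dotted lines at the level of 3 fragments. Slc7a5 lies at 13.9 in WT day 3 and 14.4 in WT day 6 but at 1.11 in NLRP3KO day 3, while the levels of Slc2a1 in the 4 Th2 libraries lie between 12.0 and 20.6; without scaling Slc3a2 and Slc7a1 are lower, not higher, in WT day 3 than in naive WT.

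In naive cells 3 amino acid carriers had the highest FPKM of the set in both genotypes, followed by Slc38a1 in WT and by the glucose carrier Slc2a1 in NLRP3KO. Slc1a5, the sodium-dependent carrier of glutamine and other small neutral amino acids (mm9 chromosome 7, 17366695 to 17383623), had the highest FPKM, 23.8 in WT (bounds 20.1 to 27.0) and 46.9 in NLRP3KO (40.2 to 51.4). Slc38a2, a sodium-coupled carrier of small neutral amino acids that is known to respond to amino acid shortage (chromosome 15, 96517823 to 96530129), followed at 18.4 (16.3 to 20.6) and 28.9 (25.5 to 32.1). Slc3a2, the heavy chain that brings Slc7a5 to the cell surface (chromosome 19, 8781372 to 8797859), came next at 13.7 (11.4 to 16.1) and 21.5 (18.0 to 25.1). The bounds of Slc1a5 and Slc38a2 overlapped in WT and were apart in NLRP3KO, while those of Slc38a2 and Slc3a2 were apart in both.

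Slc38a1, a glutamine carrier next to Slc38a2 on chromosome 15 (96401849 to 96473344), had naive FPKM of 9.64 in WT and 11.4 in NLRP3KO. In WT it stood above the next gene, Slc7a1, with bounds apart. Slc7a1, the carrier of cationic amino acids such as arginine and lysine (chromosome 5, 149138986 to 149211480), had 6.00 and 6.93. Slc2a1, the widely expressed glucose carrier GLUT1 (chromosome 4, 118781350 to 118809934), had 5.57 and 11.8. The remaining genes of WT, from Slc7a1 down to Slc7a5, overlapped with their neighbours in the bounds. Slc7a5, the light chain that carries the amino acids (chromosome 8, 124405046 to 124431586), was at 3.93 and 8.29. Slc7a6, an exchanger of cationic and neutral amino acids that also pairs with Slc3a2 (chromosome 8, 108692775 to 108722604), was at 4.19 and 8.06. Slc16a1, the monocarboxylate carrier MCT1 (chromosome 3, 104442591 to 104462385), was at 4.22 and 6.21. Slc16a3, the lactate exporter MCT4 (chromosome 11, 120809798 to 120820314), was the lowest in both naive libraries, at 0.990 and 1.02.

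Between the naive genotypes none of the 10 genes was 2-fold apart: 0 were higher and 0 lower, where 0.21% of all 9985 genes were called higher in NLRP3KO and 2.32% lower. The median log2 difference of the 10 was 0.19, against 0.01 over all genes kept. Slc1a5 had a difference of 0.50 and a ratio of scaled fragments, NLRP3KO to WT, of 1.47 (95% counting interval 1.26 to 1.72). Slc2a1 had 0.46 and a ratio of 1.57 (1.13 to 2.21), and Slc7a5 had 0.40 and a ratio of 1.56 (1.11 to 2.21). The ratios of Slc7a6, 1.43 (1.03 to 1.99), and Slc38a2, 1.17 (1.01 to 1.35), also lay above 1. By these intervals 5 of the 10 genes had more fragments in naive NLRP3KO than the counting error of these 2 libraries spans. Slc3a2, Slc7a1, Slc38a1, Slc16a1 and Slc16a3 had intervals that held 1. The share of all genes with such intervals was not computed, so the 5 are not read as a trait of the set. Beside this, the 8 T cell markers had a median log2 difference of 0.21 between the naive genotypes, so a shift of this size was not particular to the transporters. The summed FPKM of 6 B cell markers was 81.5 in naive WT and 39.1 in NLRP3KO, and that of 8 erythroid entries 1223 and 595. Of those 8 entries 2 stood at least 2-fold higher in NLRP3KO (both of Hba-a1) and 3 lower (both of Hba-a2, and Hbb-b2), and near-identical globin copies share reads. Their part in the differences was not tested, and in bulk RNA fewer cells of a type and less RNA per cell cannot be told apart.

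From naive cells to day 3 in WT, the transporters stood higher after scaling: 5 of 10 were at least 2-fold higher (9.99% of 9562 genes) and 0 were lower (31.3%). The median log2 difference of the 10 was 1.26, against -0.52 over all genes kept. This direction rests on the scaling, since with FPKM as deposited the median of all genes above 0 in both libraries was -1.91. Of the 10, 1 was then higher (2.31% of genes) and 5 lower (86.3%). The 5 higher genes were Slc7a5, Slc3a2, Slc7a1, Slc2a1 and Slc16a3. Under unscaled FPKM the log2 differences of Slc3a2 and Slc7a1 turned to -0.71 and -0.42.

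The values of Slc7a5 in WT day 3 are a description, since that library was one side of the difference on which the genes were chosen. Slc7a5 had 61 fragments in naive WT and 14 in WT day 3, where the whole library was far smaller, and its scaled ratio of day 3 to naive was 10.7 (5.51 to 19.3), a log2 difference of 2.70. Slc3a2 had a ratio of 3.70 (1.65 to 7.28) and Slc7a1 one of 4.34 (2.52 to 7.04). The level of Slc7a5 relative to its partner Slc3a2 within a library, which no scaling touches, was 0.287 by FPKM in naive WT and 0.862 in WT day 3. Light and heavy chain were thus nearer each other in FPKM at day 3 than in naive WT.

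Slc2a1 stood 6.75-fold higher in WT day 3 than in naive WT (2.95 to 13.7), and Slc16a3, with 3 fragments at day 3 and 6 in naive WT, had a ratio of 23.2 (3.76 to 109). Slc16a3 moved from below Slc16a1 to above it: the ratio of their FPKM was 0.235 in naive WT and 5.50 in WT day 3, where Slc16a1 had 2 fragments. The ratios of Slc16a1, 1.12 (0.133 to 4.18), and Slc38a2, 0.984 (0.422 to 1.96), were near 1 with wide intervals. Beside these values, 7 of 8 T cell markers stood at least 2-fold lower in WT day 3 than in naive WT, and the 8 erythroid entries with a sum of 1223 in naive WT were all listed at 0. Rn45s, the ribosomal RNA precursor, had an FPKM of 10783 before culture and 57645 at day 3. Their part in the result was not tested.

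In NLRP3KO the day 3 library was set against its own naive library, which shares no library with the WT comparison. Here 2 of 10 genes were at least 2-fold higher (10.8% of 10048 genes) and 1 lower (32.1%), with a median of -0.12 against -0.53 over all genes kept. With FPKM as deposited 1 was higher (2.63% of genes) and 8 lower (88.4%), and the median of all genes above 0 in both was -2.16. The 2 higher genes carried glucose and lactate: Slc2a1 had a ratio of 5.34 (2.48 to 10.3) and Slc16a3 one of 71.3 (16.9 to 344), though the log2 difference of Slc2a1 turned to -0.41 without scaling. Slc38a2 was the lower one, with 1 fragment at day 3 and a ratio of 0.118 (0.00298 to 0.661). Beside these values, 6 of 8 T cell markers stood at least 2-fold lower in NLRP3KO day 3 than in its naive library, and Rn45s was at 7819 in the naive and 63242 in the day 3 library. Their part in the result was not tested.

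The pair Slc7a5 and Slc3a2 held 1 fragment each in NLRP3KO day 3, with day 3 to naive ratios of 0.546 (0.0137 to 3.13) and 0.393 (0.00986 to 2.23). The 5.51-fold lower bound of Slc7a5 in WT lay above the 3.13-fold upper bound in NLRP3KO. Both sides rest on the day 3 libraries whose difference in Slc7a5 led to the choice of the genes, so this is a description. The 7 amino acid carriers together had a scaled ratio of day 3 to naive of 2.51 (1.94 to 3.20) in WT and 0.655 (0.393 to 1.03) in NLRP3KO. The 3 carriers of glucose and monocarboxylates had ratios of 4.31 (2.30 to 7.46) and 5.13 (3.02 to 8.25), with overlapping intervals. Both sums are led by the genes with most fragments. Without Slc7a5 the amino acid carriers had ratios of 2.10 (1.58 to 2.76) in WT and 0.663 (0.392 to 1.05) in NLRP3KO. All these sums use the same day 3 libraries, so they are likewise a description.

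**Figure D2:**
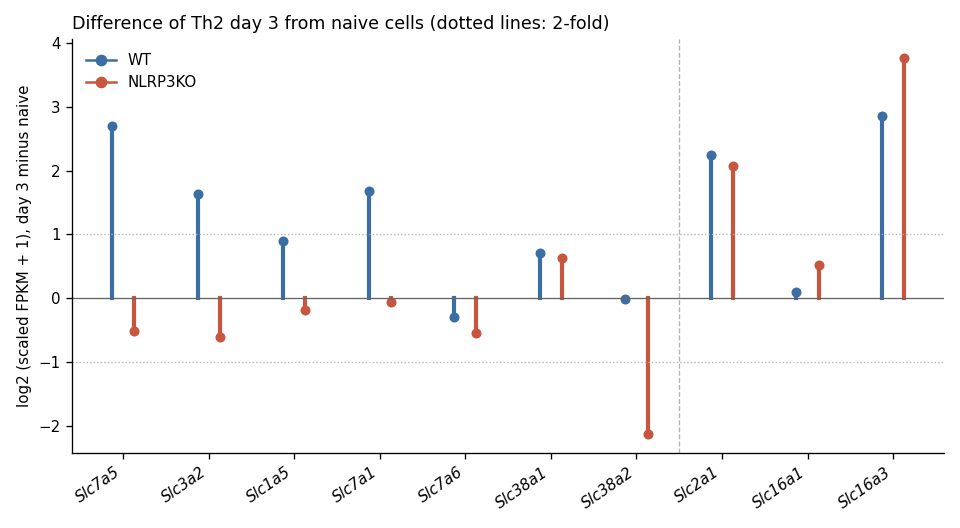
Log2 difference of each transporter between day 3 and naive cells, after scaling, in WT (blue) and in NLRP3KO (red), with dotted lines at 2-fold. Slc2a1 and Slc16a3 lie above 1 in both genotypes, while Slc7a5 lies at 2.70 in WT and -0.52 in NLRP3KO; with FPKM as deposited the differences of Slc3a2 and Slc7a1 in WT and of Slc2a1 in NLRP3KO change sign.

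At day 3, the contrast on which the genes were chosen, of the 9 genes kept 4 were at least 2-fold lower in NLRP3KO (27.2% of 5749 genes) and 0 higher (25.4%). The 4 were Slc7a5, Slc3a2, Slc7a1 and Slc38a2. The median of the 9 was -0.57, against 0.11 over all genes kept. The gene left out, Slc7a6, had 1 fragment in each library and an FPKM of 0.462 in WT and 0.587 in NLRP3KO. Nothing is read from these counts.

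Slc7a5 had an FPKM of 6.88 in WT (bounds 3.77 to 10.4, 14 fragments) and 0.625 in NLRP3KO (0 to 1.80, 1 fragment), a log2 difference of -2.82 and a ratio of 0.0801 (0.00189 to 0.526). Slc3a2 had 7.98 (3.23 to 12.7, about 9 fragments) and 1.73 (0 to 5.99, about 1), a ratio of 0.125 (0.00284 to 0.899). Slc7a1 had 4.24 (2.31 to 5.99, 18 fragments) and 0.897 (0 to 1.76, 3 fragments), a ratio of 0.187 (0.0353 to 0.640). The deposited bounds of WT and NLRP3KO were apart for Slc7a5 and Slc7a1 and overlapped for Slc3a2. By this stricter call, 2 of the 9 were lower (2.42% of genes) and 0 higher (2.16%). Slc7a5, on which the genes were chosen, is 1 of the 2, so nothing is read from this count either.

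The fourth lower gene, Slc38a2, had an FPKM of 2.95 (8 fragments) and 0.469 (1 fragment), with a ratio of 0.140 (0.00316 to 1.05) that just held 1. Slc1a5 (7.60 and 5.64, 12 and 7 fragments) and Slc38a1 (2.87 and 2.74, about 7 and 5 fragments) had ratios of 0.654 (0.218 to 1.80) and 0.801 (0.200 to 2.93). The deposited bounds of WT and NLRP3KO overlapped for Slc38a2, Slc1a5 and Slc38a1, as they did for Slc3a2.

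Slc2a1 had an FPKM of 6.14 in WT and 8.67 in NLRP3KO (9 and 10 fragments), a ratio of 1.25 (0.455 to 3.47). Slc16a1 had 0.773 and 1.47 (2 and 3 fragments, ratio 1.68, 0.193 to 20.1), and Slc16a3 had 4.25 and 9.01 (about 3 and 6 fragments, ratio 2.24, 0.479 to 13.9). Each stood nominally higher in NLRP3KO, and each interval held 1. The order of levels differed: Slc3a2, Slc1a5 and Slc7a5 led in WT, and Slc16a3, Slc2a1 and Slc1a5 in NLRP3KO, with overlapping bounds among the leading 3 in either library.

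**Figure D3:**
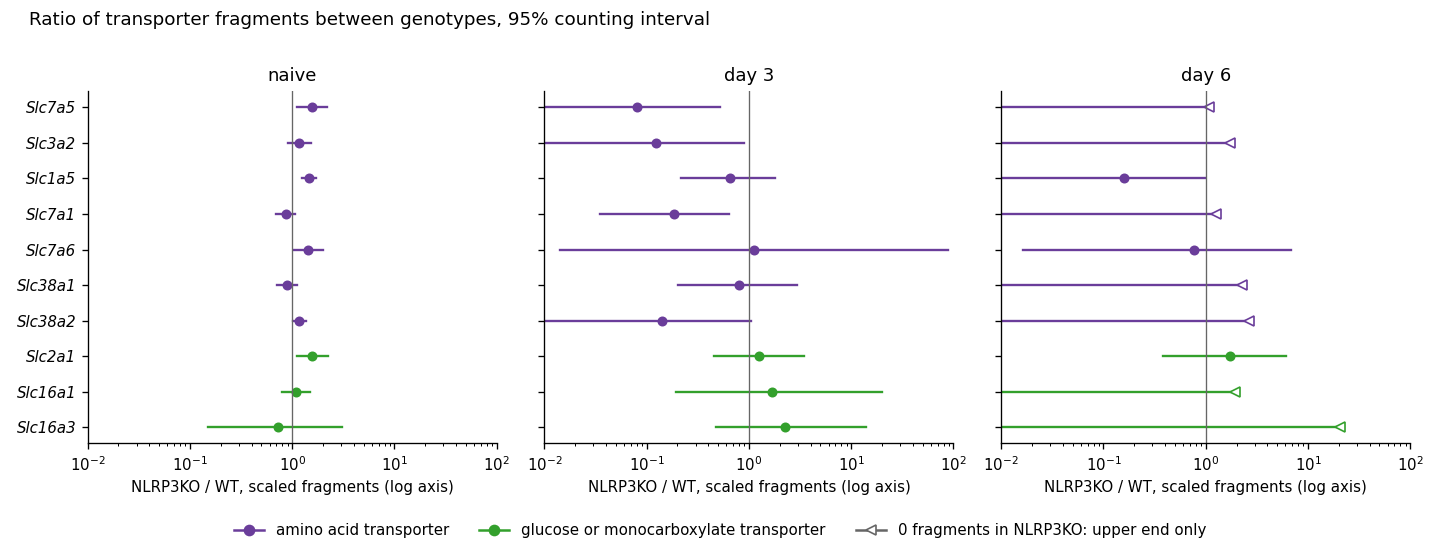
Ratio of scaled fragments, NLRP3KO to WT, for each transporter in naive cells, at day 3 and at day 6 (log axis), with 95% counting intervals as lines that run to the edge where they leave the axis, and open triangles at the upper end where NLRP3KO had 0 fragments. Naive ratios lie between 0.731 and 1.57, and at day 3 those of Slc7a5, Slc3a2 and Slc7a1 have intervals wholly below 1.

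A measure that needs no scaling between libraries is the share of the set's fragments that fell on the 7 amino acid carriers. It was 89.4% in naive WT (Clopper-Pearson 95% interval 87.7 to 91.0) and 88.7% in naive NLRP3KO (87.0 to 90.2). At day 3 it was 83.1% in WT (69 of 83 fragments, 73.3 to 90.5) and 50% in NLRP3KO (19 of 38, 33.4 to 66.6). The day 3 intervals did not overlap, while the naive ones did. Without Slc7a5, the gene that led to the choice, the shares at day 3 were 79.7% (68.3 to 88.4) and 48.6% (31.9 to 65.6). Both day 3 libraries are those on whose difference the genes were chosen, and the other carriers were chosen with results of these data known. With or without Slc7a5, the day 3 shares are therefore a description. At day 6 the shares were 80.4% in WT (71.4 to 87.6) and 33.3% in NLRP3KO (4.33 to 77.7), the latter from 6 fragments, with overlapping intervals.

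**Figure D4:**
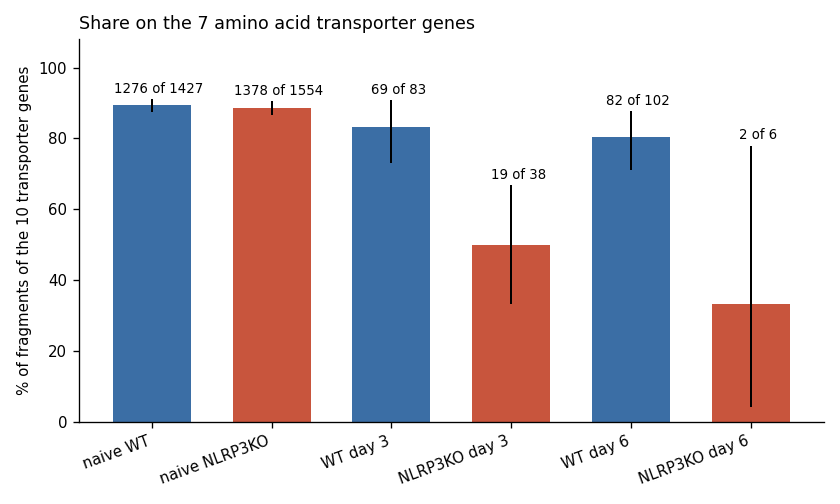
Share of the transporters' fragments that fell on the 7 amino acid carriers (percent, vertical axis) in each of the 6 libraries, with Clopper-Pearson 95% intervals that cover counting error only. WT libraries lie between 80.4% and 89.4%, and NLRP3KO at 88.7% in naive cells, 50% at day 3 and 33.3% at day 6.

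At day 3 the T cell markers summed to 48.0 in WT (8 of 8 above 0) and 62.3 in NLRP3KO (7 of 8, with Cd3d at 0). Of the 29 entries of other cell types, 1 was above 0 in each library, the B cell gene Cd79b at 1.57 in WT and the myeloid gene Emr1 at 0.679 in NLRP3KO. The part of Rn45s, at 57645 in WT and 63242 in NLRP3KO, in the differences was not tested.

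At day 6 the genotype comparison used neither of the day 3 libraries on whose difference the genes were chosen. The genes were still chosen with earlier results of these data known, and the NLRP3KO library was shallow. Of the 10 genes kept, 8 were at least 2-fold lower in NLRP3KO (53.8% of 5336 genes) and 0 higher (20.9%), with a median of -2.78 against -1.52 over all genes kept. In 7 of the 8, NLRP3KO was listed at 0: Slc7a5, Slc3a2, Slc7a1, Slc38a1, Slc38a2, Slc16a1 and Slc16a3. Over all 23415 entries, 2777 were above 0 in NLRP3KO day 6 and 6881 in WT day 6. The share of kept genes listed at 0 is not given here, so the 7 are not read as a trait of the set. Of the 3 genes above 0 in both libraries, 1 was lower. The eighth, Slc1a5, had an FPKM of 16.3 in WT (24 fragments) and 2.95 in NLRP3KO (1 fragment), a ratio of 0.160 (0.00390 to 0.984). When libraries were scaled by their fragments on genes, the ratio of Slc1a5 was 0.241 (0.00586 to 1.48), an interval that held 1. With 4430 fragments on genes, this library would show 3 fragments of a transporter only at a median FPKM of 6.65.

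For Slc7a5 that limit was 6.86, just under the 7.91 of WT day 6, and the ratio allowed by 0 against 15 fragments reached up to 1.07. For Slc7a1 it was 3.29 against 3.28 in WT, with a ratio of up to 1.26. For Slc3a2 it was 12.8 against 9.51, with a ratio of up to 1.72. An equal level of each of these 3 genes in both genotypes was thus within the counting error at day 6. Slc7a6 had FPKM of 2.48 and 2.15 (5 and 1 fragments), with a ratio of 0.770 (0.0163 to 6.88).

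Summed over genes, the 7 amino acid carriers had 82 fragments in WT day 6 and 2 in NLRP3KO day 6, a ratio of 0.0939 (0.0112 to 0.350) that became 0.141 (0.0168 to 0.526) when libraries were scaled by their fragments on genes. Without Slc7a5 it was 2 against 67 fragments, a ratio of 0.115 (0.0136 to 0.432). The 3 glucose and monocarboxylate carriers had 20 and 4 fragments, a ratio of 0.770 (0.191 to 2.30). The 4 fragments were all of Slc2a1, which had an FPKM of 6.58 in WT and 12.7 in NLRP3KO and a ratio of 1.71 (0.385 to 6.13). T cell markers had a sum of 71.9 in WT day 6 and 38.5 in NLRP3KO day 6, with Cd3g, Cd5 and Lck at 0 in the latter and 5 of 8 at least 2-fold lower. The part of depth and of these markers in the result was not tested.

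Within WT the set differed little between day 6 and day 3, with 2 of 10 genes at least 2-fold higher (24.1% of 5592 genes), 0 lower (20.2%) and a median of 0.06 against -0.03. The 2 higher genes were Slc7a6, from 1 to 5 fragments (ratio 4.87, 0.545 to 230), and Slc16a1, from 2 to 9 (ratio 4.38, 0.907 to 41.7), and both intervals held 1. Slc7a5 had a ratio of 1.04 (0.469 to 2.33) and Slc2a1 one of 0.973 (0.342 to 2.77). Slc1a5, with a ratio of 1.95 (0.936 to 4.27), again had the highest FPKM of the set. The FPKM of Slc7a5 relative to Slc3a2 was 0.832, near its day 3 value of 0.862. In NLRP3KO, day 6 against day 3 gave 1 of 7 genes kept higher (21%) and 4 lower (51.8%), with the 4 all listed at 0 at day 6. The higher gene was Slc7a6, with 1 fragment in each library and a ratio of 3.34 (0.0426 to 262). Slc2a1 had a ratio of 1.34 (0.306 to 4.63).

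Across all 6 libraries Slc2a1 and Slc7a5 had unlike patterns. Slc7a5 was highest after scaling in WT day 3 and WT day 6, and the genes most like it by Pearson's r over the 6 libraries, among 3754 candidates, were Yars, the tyrosyl-tRNA synthetase (0.998), Ube2s (0.991), Shmt2, a mitochondrial serine hydroxymethyltransferase (0.987), Atp5b (0.987) and Pcna, the sliding clamp of DNA replication (0.985). Yars had FPKM of 4.78, 6.67 and 7.16 in WT (naive, day 3, day 6) and of 8.83, 0.771 and 0 in NLRP3KO. Within the set, Slc7a1 (0.965), Slc3a2 (0.945) and Slc1a5 (0.915) were nearest to Slc7a5, while Slc2a1 (0.07) and Slc7a6 (0.03) were far from it. These coefficients rest on 6 points that share depth, scaling and RNA preparation, and describe likeness only.

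Partners and relatives of the glucose and lactate carriers were measured alongside. Slc2a3, the high-affinity glucose carrier GLUT3, had FPKM of 6.94, 5.64 and 6.52 in WT (naive, day 3, day 6) and of 12.2, 35.3 and 18.2 in NLRP3KO. It stood highest in NLRP3KO day 3, with bounds (26.6 to 44.1) above those of WT day 3 (2.93 to 8.36). Relative to Slc2a1 its FPKM was 0.919 in WT day 3 and 4.07 in NLRP3KO day 3. Bsg, the chaperone of the monocarboxylate carriers, had FPKM of 9.21 in WT day 3 and 25.1 in NLRP3KO day 3, with overlapping bounds, and 8.44 and 0 at day 6. Of 8 kept genes among 28 other sugar, monocarboxylate and nutrient transporters, 3 were higher (beside 25.4% of all genes) and 1 lower (beside 27.2%) in NLRP3KO at day 3.

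Among 33 other amino acid transporters, 8 were kept at day 3, of which 2 were higher (beside 25.4% of all genes) and 3 lower (beside 27.2%) in NLRP3KO, with a median of -0.56 against 0.11. At day 6, 8 were kept, with 2 higher (beside 20.9%) and 4 lower (beside 53.8%). In naive cells 13 were kept, with 0 higher (beside 0.21%) and 0 lower (beside 2.32%).

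The amino acid response was measured as a list of 20 genes: Atf4 itself, kinases upstream of it, and genes that act with or below it, among them enzymes of serine, glycine and folate metabolism. In WT day 3 against naive WT, 13 of 18 kept were higher (beside 9.99% of all genes) and 0 lower (beside 31.3%) after scaling, with a median of 1.51. With FPKM as deposited 6 were higher (beside 2.31%) and 6 lower (beside 86.3%), with a median of -0.57. Psat1, an enzyme of serine synthesis, had an FPKM of 15.5 in WT day 3 and 5.70 in naive WT, and Shmt2 had 16.9 and 8.63. The FPKM of Ddit4, an inhibitor of mTORC1, was 6.45 in WT day 3 and 18.1 in naive WT, a log2 difference of 1.01 after scaling. At day 3, 9 of 17 kept were lower in NLRP3KO (beside 27.2%) and 3 higher (beside 25.4%), with a median of -1.30. Shmt2 had 16.9 in WT and 1.95 in NLRP3KO with bounds apart, and Mthfd2, a mitochondrial folate enzyme, had 9.46 in WT and was listed at 0 in NLRP3KO. Ddit4 was among the 3 higher genes, with 6.45 in WT and 21.9 in NLRP3KO. At day 6, 12 of 15 were lower in NLRP3KO (beside 53.8%), with Atf4 itself at 29.2 in WT and 4.89 in NLRP3KO. Myc had an FPKM of 12.5 in WT and 6.53 in NLRP3KO at day 3, with overlapping bounds, and 10.2 and 0 at day 6. The list was chosen with results of these data known, so its counts are no independent evidence.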

How the data were processed

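Gene tables deposited by the authors, 1 for each library, give FPKM with confidence bounds and a status, per the file headers. TopHat, Cufflinks and mm9 are named in the submitters' processing notes, with versions and annotation not given in the sources used here. Of 23700 entries, 285 with too little data were left out. FPKM were scaled by the median ratio over 1059 genes that reached an FPKM of 1 in every library. Differences are on the log2(scaled FPKM + 1) scale, where low genes come out too small. Genes that reached an FPKM of 1 in either library were kept and called when at least 2-fold apart. Count tests do not suit FPKM. Each comparison set 1 library against 1, with no p-value, and a joint fit of genotype and stage over the 6 libraries was not run. Coordinates of genes are on mm9, counted from 1.

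Fragment numbers were inferred: multiplied by relative depth, the deposited bounds of 7 genes were whole multiples of 1 step per gene. For Slc3a2, Slc38a1 and Slc16a3, with several starts, they were estimated from the width of the bounds and are approximate. Fragments on genes used mean transcript lengths of GRCm38 by symbol. Ratio intervals are exact conditional binomial (95%), and cover counting error only since PCR fragments carried no molecular identifiers. A limit of 3 fragments served for values of 0, which can be failed estimates. The computations were tested on simulated data. Python 3.11.15, numpy 2.4.6, pandas 2.3.3, scipy 1.17.1 and matplotlib 3.10.9 were used. Alternatives were no scaling, 2 other scalings, other pseudocounts, other minimum values, and genes above 0 in both libraries.

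The transporters and lists were chosen with earlier results of these data known. The text names all 10 transporters, Slc2a3 and Bsg, the 5 genes most like Slc7a5 (FPKM of at least 5 in 1 library, above 0 in at least 5), and from each list up to 4 genes a comparison that were at least 2-fold apart with an FPKM of at least 5.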

Additional observations from a re-analysis of the deposited data

Results flagged for a closer look

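Slc16a1, a lactate and pyruvate carrier, had values that differed in opposite directions between day 3 and day 6 in the 2 genotypes. Its log2 difference of day 6 against day 3 was 1.61 in WT, from 2 to 9 fragments, and -1.86 in NLRP3KO, from 3 fragments to a value listed at 0. The difference between the genotypes was not tested. In NLRP3KO day 6, 3 fragments of Slc16a1 would correspond to an FPKM of 5.40, above the 1.47 of NLRP3KO day 3, so a lower level was not detectable at this depth. The WT ratio of 4.38 (0.907 to 41.7) held 1, and the NLRP3KO ratio reached up to 8.09, so opposite movement is not shown.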

How the results depend on the processing

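The labels carry no replicate numbers, and with 1 library per group none could be left out of a comparison. A fit of genotype over the 6 libraries with stage as a block was not run, since it would take in the day 3 contrast on which the genes were chosen. With FPKM as deposited, 1 gene was higher and 5 lower in WT day 3 against naive (5 and 0 after scaling), 1 higher and 8 lower in NLRP3KO day 3 against naive (2 and 1), and 0 higher in NLRP3KO day 6 against day 3 (1). That setting reversed Slc3a2 (-0.71) and Slc7a1 (-0.42) in WT day 3 against naive and Slc2a1 (-0.41) in NLRP3KO day 3 against naive; it also shifts the median of all genes there by -1.91 and -2.16. Scaling by fragments on genes gave 1 gene higher in NLRP3KO against WT at day 6 (0). A median ratio per pair of libraries gave 0 higher in NLRP3KO day 6 against day 3. A pseudocount of 5 gave 0 higher in WT day 6 against day 3 (2), and 0 higher and 1 lower in NLRP3KO day 6 against day 3 (1 and 4). A minimum FPKM of 5, by which fewer genes were kept, gave 2 lower in NLRP3KO at day 3 (4) and 3 lower at day 6 (8), 0 higher in WT day 6 against day 3, and 0 higher and 1 lower in NLRP3KO day 6 against day 3. Over genes above 0 in both libraries, 1 was lower in NLRP3KO at day 6 (8) and 0 in NLRP3KO day 6 against day 3 (4). Other shifts in counts were within 1.5 times, and where no construction is named the cause was not tested. The share of genes called higher or lower in day 3 against naive moved with scaling, from 9.99% and 31.3% in WT to 2.31% and 86.3% as deposited, and from 10.8% and 32.1% in NLRP3KO to 2.63% and 88.4%. Depth limits NLRP3KO day 6 most, where 7 of 10 transporters are listed at 0.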

Other observations

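Tfrc, the transferrin receptor through which proliferating cells take up iron, had an FPKM of 9.37 in WT day 3 and 7.25 in naive WT, which is a log2 difference of 2.56 after scaling. Emb, a chaperone of monocarboxylate carriers like Bsg, had 47.2 in naive WT and 1.34 in WT day 3, with deposited bounds apart and a log2 difference of -2.16 after scaling. Slc16a5, another monocarboxylate carrier gene, was at 10.1 in naive WT and listed at 0 in WT day 3, a log2 difference of -2.11 after scaling.

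Of the mTORC1 amino acid sensing genes, 22 were kept in WT day 3 against naive, with 3 higher (beside 9.99% of all genes) and 6 lower (beside 31.3%) after scaling. With FPKM as deposited 0 were higher (beside 2.31%) and 20 lower (beside 86.3%). Sesn1, which binds the GATOR complex upstream of mTORC1, stood at an FPKM of 19.1 in naive WT and 1.09 in WT day 3, a log2 difference of -1.18 after scaling. Eif4ebp2, a translation repressor that mTORC1 phosphorylates, had 9.08 in WT day 3 and was listed at 0 in NLRP3KO day 3. Between the genotypes at day 3, 13 of this list were kept, with 3 higher (beside 25.4%) and 3 lower (beside 27.2%) in NLRP3KO.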
